A study of Mus musculus with 18 samples.

Results

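A set of 42 mouse genes that type I interferon switches on, listed by symbol, was followed through spinal dorsal horn, where sensory fibres end in the cord, and through colon. Of these, 38 were found in both count tables (colon 14987 genes, dorsal horn 15193), and all 38 were tested in both tissues. Ifit3b, Oasl1, Samd9l and Trim30a were not analysed here. The mice were wild type (WT) and fell into 3 groups. The sham group was given IgG. Bone cancer was present in the cancer group, which was also given IgG, and in the nivolumab group, which was given nivolumab instead, an antibody raised to block PD-1 of humans. The study concerns pain from bone cancer when PD-1 is blocked. Each tissue had 3 libraries per group, 18 in all, numbered 1 to 3. The labels do not say which libraries came from which animals, so p-values measure only how far these samples differ, and part of that may be technical.

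Type I interferons are secreted when a cell senses foreign nucleic acid, and they signal through a surface receptor to kinases that activate transcription factors of the STAT family, STAT2 among them. STAT2 joins IRF9 in a complex that binds the interferon-stimulated response element (ISRE) in the promoters of target genes. The products sense viral RNA, block its translation, degrade it, modify proteins with ISG15 or trap virus at membranes. Several of these genes also answer to type II or type III interferon, and some are transcribed without any. In the nervous system, microglia, astrocytes, neurons and vessel cells can all respond.

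The promoters show how directly the set carries that element. Promoter windows in RefSeq for GRCm38.p6, from 250 bases before to 50 bases after a gene's start, were matched by symbol for 32 of the 42 genes. The core searched was TTTC, any 2 bases, then TTTC, on both strands, so that it also reads as GAAA, 2 bases, GAAA, and 14 of the 32 genes (43.8%, Wilson 95% interval 28.2% to 60.7%) held it. Among all 27025 genes with windows of the same length, 3.99% did. The wider core of TTT, any 3 bases, then TTTC includes the first and was in 65.6% of the 32 and in 14.2% of all genes. The GAS core TTCNNNGAA, another element of interferon signalling, was in 25% and 9.55%. A match describes letters in the window and is not a measured binding site.

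The windows below carry the core in the members whose dorsal horn level passed the test for a rise with nivolumab, with 10 flanking bases on each side where the window allows and the core in capitals, 5′ to 3′.
Ifit1, chr19:34640775-34640804, plus strand: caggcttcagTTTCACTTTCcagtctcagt
Ifit1, chr19:34640794-34640823, plus strand: ccagtctcagTTTCAGTTTCtcactgctga
Ifit3, chr19:34583363-34583392, plus strand: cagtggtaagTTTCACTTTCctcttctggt
Ifit3, chr19:34583397-34583426, plus strand: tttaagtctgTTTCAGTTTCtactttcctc
Isg15, chr4:156200871-156200900, minus strand: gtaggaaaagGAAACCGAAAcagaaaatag
Oas1a, chr5:120907526-120907555, minus strand: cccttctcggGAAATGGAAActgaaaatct
Stat2, chr10:128270266-128270295, plus strand: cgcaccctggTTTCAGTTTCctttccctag
Ddx58, chr4:40239804-40239833, minus strand: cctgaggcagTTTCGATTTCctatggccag
Ifih1, chr2:62646206-62646233, minus strand: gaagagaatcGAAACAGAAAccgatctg
Rsad2, chr12:26456553-26456582, minus strand: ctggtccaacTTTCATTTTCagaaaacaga
Bst2, chr8:71537583-71537612, minus strand: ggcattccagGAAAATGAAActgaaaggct

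Ifit1 held 2 cores, starting 104 and 85 bases before its start, and Ifit3 held 2, at 156 and 122 bases. Both Ifit3 windows have the same letters in Ifit3b, the near-copy that lies 24.4 kb further along chromosome 19. Isg15 held 3 overlapping cores between 78 and 57 bases before its start, of which the middle one is printed, and Oas1a and Bst2 held 2 overlapping cores each, of which the first is printed, as it is for the 2 cores of Ifitm3. In Ddx58 and Ifih1 the core lay after the start. The core was also found in Oas3, Eif2ak2 and Ifitm3, which did not pass the test against cancer, with these letters.
Oas3, chr5:120777715-120777744, minus strand: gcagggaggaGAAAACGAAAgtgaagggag
Eif2ak2, chr17:78882535-78882564, minus strand: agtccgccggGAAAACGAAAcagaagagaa
Ifitm3, chr7:141010723-141010752, minus strand: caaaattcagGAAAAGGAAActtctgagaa

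The 2 members with the largest called rises differ in this respect, and their whole windows are given for that reason. Ifit1 has the core in capitals, whereas these 300 bases of Oasl2 hold only the wider core, which is not marked.
Ifit1, chr19:34640639-34640938, plus strand: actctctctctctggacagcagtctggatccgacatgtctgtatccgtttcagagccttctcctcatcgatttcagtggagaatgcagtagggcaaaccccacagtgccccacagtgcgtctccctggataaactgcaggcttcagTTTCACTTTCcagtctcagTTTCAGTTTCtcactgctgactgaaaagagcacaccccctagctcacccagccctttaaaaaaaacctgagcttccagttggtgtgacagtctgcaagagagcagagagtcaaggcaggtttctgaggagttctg
Oasl2, chr5:114896684-114896983, plus strand: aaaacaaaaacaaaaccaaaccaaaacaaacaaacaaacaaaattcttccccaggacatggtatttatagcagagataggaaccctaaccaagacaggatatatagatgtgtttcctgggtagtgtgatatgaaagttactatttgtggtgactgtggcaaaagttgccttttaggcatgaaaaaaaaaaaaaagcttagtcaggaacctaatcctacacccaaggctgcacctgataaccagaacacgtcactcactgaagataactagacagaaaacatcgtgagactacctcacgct

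Of the 12 tested members with the core, 9 passed the test for a rise in the dorsal horn with nivolumab against cancer, with a median log2 fold change of 1.14. Of the 16 tested members whose window lacks it, 8 rose and 1 fell, with a median of 0.67. In the 10 members without a window, 6 rose, with a median of 0.83. Of all genes tested, 8.63% were called higher and 8.6% lower. These medians are a description, and members with and without the core overlapped, from -1.31 to 2.58 with it and from -0.44 to 2.18 without it.

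At rest the set was far more abundant in the colon. In sham libraries 37 of the 38 members had a higher mean CPM (the counts-per-million scale, TMM-adjusted library sizes) in the colon than in the dorsal horn, with a median ratio of 27.8. The 2 tissues come from separate tables, and the ratio rests on their separate scaling. The same ratio was not computed over all genes, so these values do not show whether the set differs from other genes. Per kilobase of exon, the sham colon ran from 4.71 to 237.3 CPM per kb, led by Ifitm3, which hinders viral fusion, Lgals3bp, a secreted galectin-3-binding glycoprotein, and Irf7, the main driver of interferon alpha transcription. The sham dorsal horn ran from 0.0246 to 25.1 CPM per kb, led by Adar, which edits double-stranded RNA, at 25.1, Ifi27 at 22.4 and Ifitm3 at 21.3. Adar was also the member whose 2 sham means were most alike (colon 190.3 CPM, dorsal horn 203.7 CPM, ratio 0.934). Oas3, Zbp1 and Mx1 were near the detection floor in the sham dorsal horn, where 3 counts per library amount to 0.114 to 0.123 CPM.

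Library totals were 20896854 to 30803957 counts for colon and 21855085 to 29071908 for dorsal horn, and no pair of libraries of a group agreed within sampling noise (lowest chi-square per degree of freedom 9.25 for dorsal horn and 67.1 for colon). Colon libraries expressed the epithelial genes Epcam and Vil1, and dorsal horn libraries expressed Gfap of astrocytes and Slc32a1 of inhibitory neurons. Dorsal horn libraries differed in markers of several tissues and cell types. Markers of dorsal root ganglion neurons (12 genes) had a mean log2 CPM of 0.47, 0.60 and 4.83 in sham, 0.89, 0.62 and 5.04 in cancer, and 6.45, 5.83 and 6.63 in nivolumab. Markers of Schwann cells (8 genes), the myelinating cells of peripheral nerve, had 3.46, 4.8 and 4.13 in sham, 3.80, 2.81 and 3.79 in cancer, and 5.70, 5.36 and 5.39 in nivolumab. All nivolumab libraries were thus above all others in both lists, and sham 3 and cancer 3 were high in ganglion markers. Summed CPM of the Schwann list was 361 to 998 in sham, 221 to 635 in cancer and 1153 to 1423 in nivolumab, and that of the ganglion list 162 to 672, 140.1 to 732 and 1260 to 2031. Against cancer, 4 of 8 Schwann and 2 of 12 ganglion markers were called higher with nivolumab, where 8.63% of all genes were.

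Other lists also differed between groups in the dorsal horn. Oligodendrocyte markers (8 genes) had mean log2 CPM of 10.13 to 10.70 in cancer and 11.05 to 11.18 in nivolumab, with sham at 11.00 to 11.42. Markers of meninges and fibroblasts (9 genes) had 3.13 to 3.47 in cancer, 3.84 to 4.29 in nivolumab and 3.27 to 4.13 in sham. Their summed CPM went the other way, at 811 to 1759 in cancer, 690 to 850 in nivolumab and 1096 to 2855 in sham. By that sum cancer and nivolumab overlapped, so the direction depends on the measure. Spinal neuron markers (10 genes) summed to 4937 to 5446 CPM in cancer, 4003 to 4166 in nivolumab and 4630 to 4863 in sham. Nivolumab was the lowest group by this sum only. Their mean log2 CPM was 6.84 to 6.96 in cancer, 6.60 to 6.71 in nivolumab and 6.54 to 6.80 in sham, where nivolumab overlapped sham. Skeletal muscle markers (8 genes) summed to 5.96 to 261 CPM in cancer, 81.4 to 835 in nivolumab and 4.73 to 149 in sham, and overlapped. Red blood cell markers (5 genes) summed to 738 to 1274 CPM in sham, above cancer (109 to 221) and nivolumab (220 to 291). The part of these differences in the members' levels was not tested beyond the covariates given next to the counts.

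**Figure D1:**
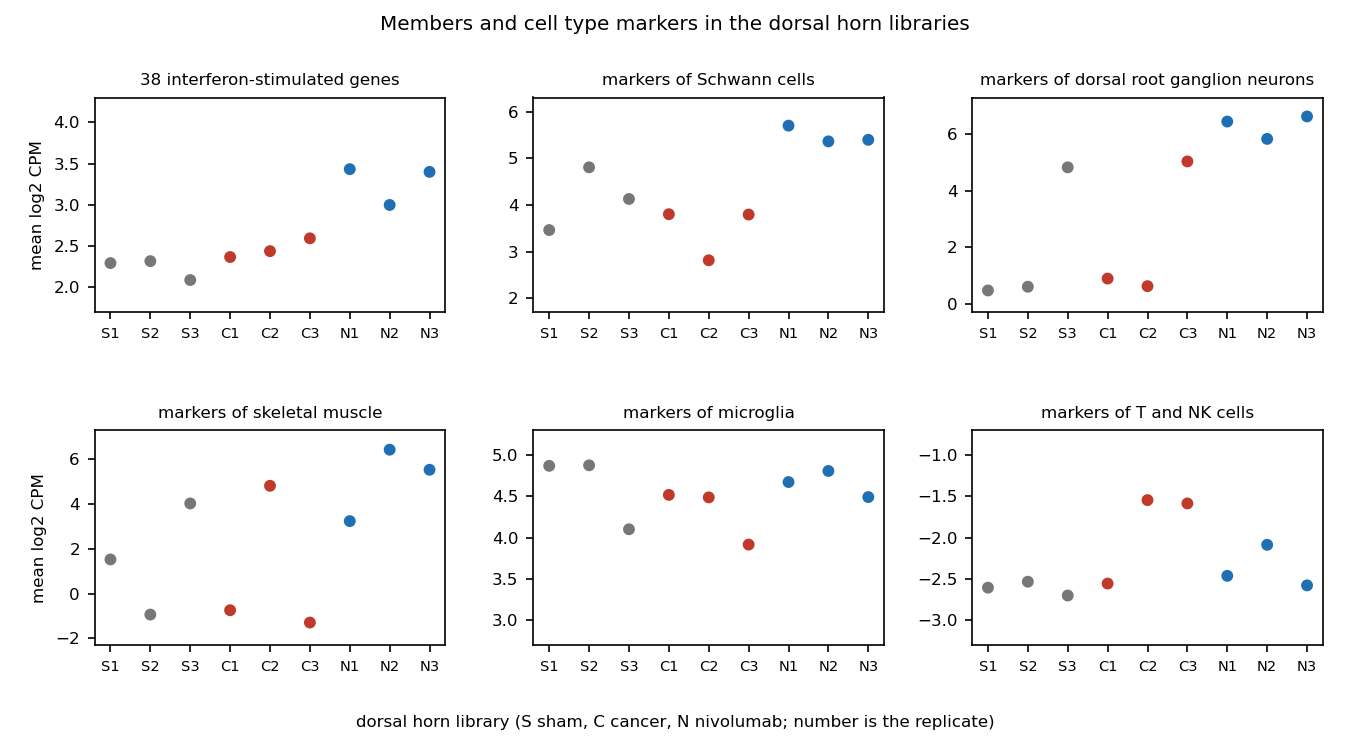
Mean log2 CPM of the 38 interferon-stimulated genes and of 5 lists of cell type markers in each dorsal horn library, with axis ranges that differ between panels. The nivolumab libraries (3.43, 3.00 and 3.40) lie above every sham and cancer library for the interferon-stimulated genes, as they do for Schwann cell and ganglion neuron markers. Sham 3 and cancer 3, which have high ganglion markers, have 2.09 and 2.59 for the members.

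In the dorsal horn, most of the set was higher with nivolumab than with cancer alone. Of 38 members, 23 were called higher and 1 lower at an adjusted p under 0.05, where 8.63% of the 13609 genes tested were called higher and 8.6% lower (17.2% either way). The level of 27 members was higher in every nivolumab library than in every cancer library, which held for 20.6% of all genes, and 1 member was lower in all (19.5%). At an unadjusted p under 0.05, 27 were higher and 1 lower (17.1% and 17% of all genes). The median log2 fold change was 0.80 over the members and 0.00 over all genes, and 35 of the 38 were above 0 (50% of all genes). In bulk tissue, a change in the number of cells of a type and a change in RNA per cell cannot be told apart.

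The count depended on how these markers were handled. With each library's Schwann cell score as a covariate, 0 of 38 members and 0 of 13609 genes were called, with 10 members at an unadjusted p under 0.05 (8.79% of all genes) and a member median of 0.52. With the ganglion neuron score as covariate 18 members were called, 17 of them among the original 24, and the median was 0.73. With the skeletal muscle score 20 were called, and without sham 3 and cancer 3 together 23. At an unadjusted p under 0.05 the ganglion fit had 25 members and 4956 of all genes, and the muscle fit 28 and 3871. The fit without those 2 libraries had 30 and 4622, and the main fit 28 and 4650. The Schwann score and the groups move together, so their parts in the result cannot be told apart. In sham 3 and cancer 3, where ganglion markers were high, the mean log2 CPM of the members was 2.09 and 2.59, against 2.29 and 2.32 in the other sham and 2.37 and 2.44 in the other cancer libraries.

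**Figure D2:**
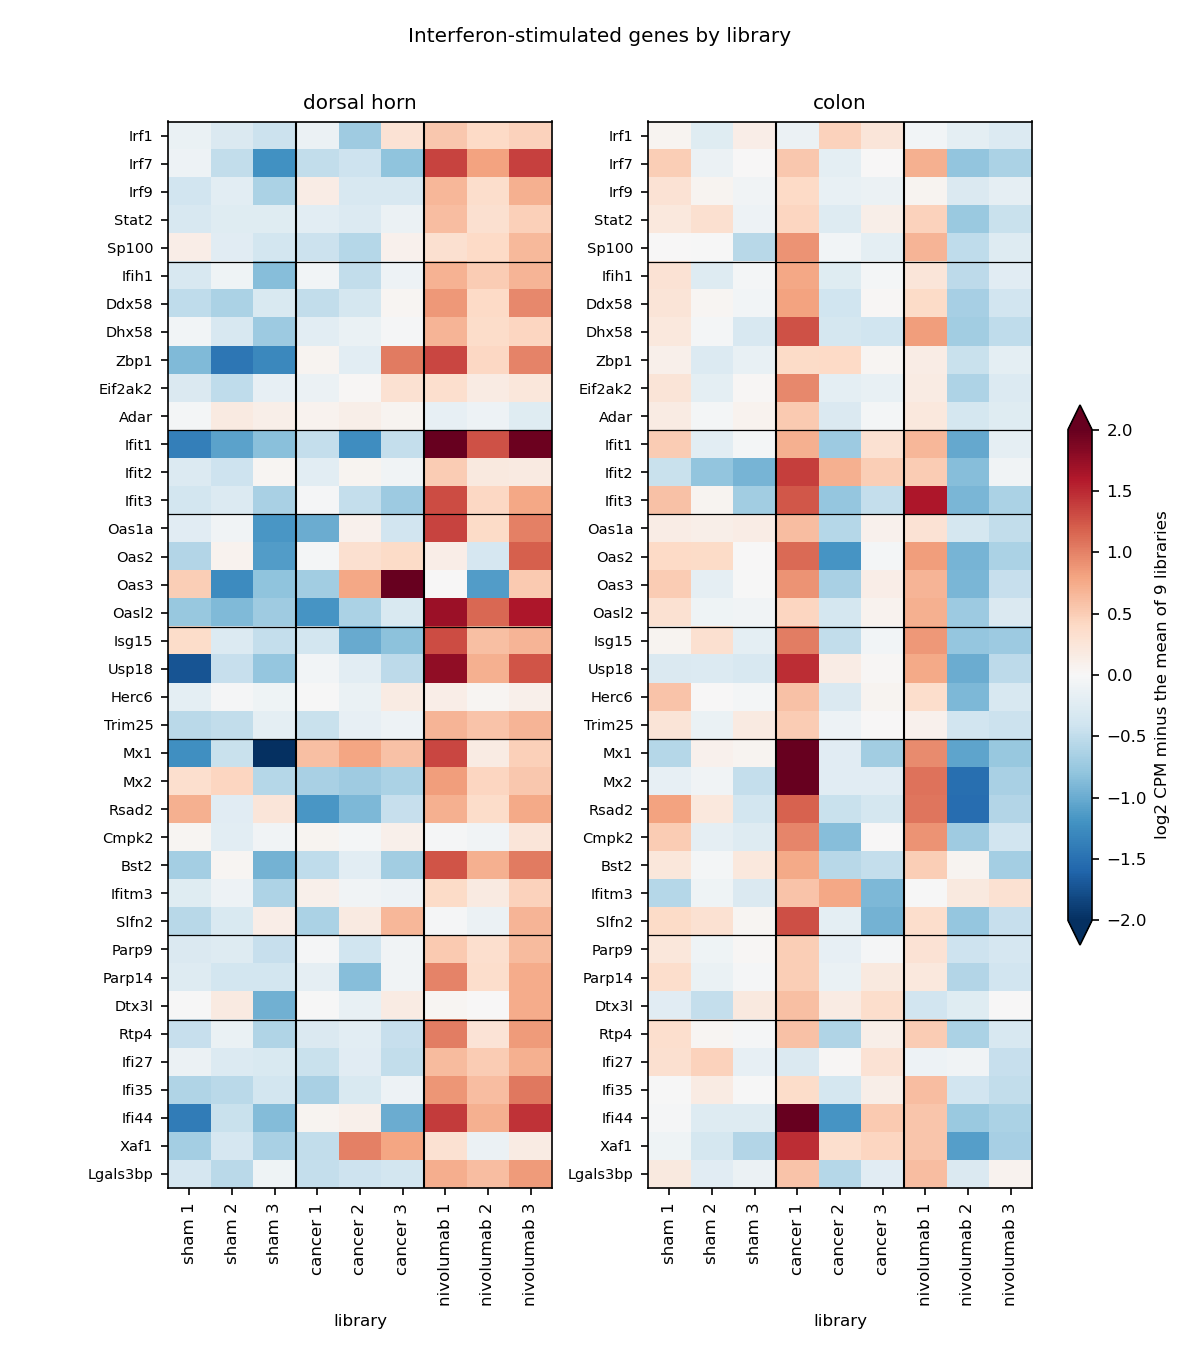
Log2 CPM of each of the 38 members in each library, less the mean of that gene over the 9 libraries of the tissue, with members in rows grouped by role and libraries in columns. In the dorsal horn most rows are red across the 3 nivolumab columns, whereas in the colon red and blue follow single libraries, with cancer 1 highest in 28 members and nivolumab 2 lowest in 23.

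Among the transcription regulators, 4 of 5 rose with nivolumab. Irf7 had 4.07, 3.11 and 1.86 CPM in sham, 3.11, 3.27 and 2.47 CPM in cancer and 11.3, 7.75 and 11.5 CPM in nivolumab. All nivolumab values were above all others, with a rise over cancer of 3.43-fold (log2 fold change 1.78, SE 0.28, adjusted p = 0.00455). Stat2, the partner of IRF9 in the ISRE-binding complex, had 36.9, 39.1 and 38.8 CPM in sham, 39.7, 38.1 and 42.7 CPM in cancer and 71.0, 57.4 and 64.3 CPM in nivolumab. Nivolumab libraries lay above all others, and libraries were close within each group (log2 fold change 0.68, SE 0.09, adjusted p = 0.00216). Irf9, the DNA-binding subunit of that complex, had 13.2, 14.9 and 11.1 CPM in sham, 19.1, 13.7 and 13.7 CPM in cancer and 27.5, 22.1 and 28.2 CPM in nivolumab. The lowest nivolumab value exceeded the highest cancer value (log2 fold change 0.74, SE 0.17, adjusted p = 0.0169). Sp100, a nuclear body protein, also rose (log2 fold change 0.76, SE 0.21, adjusted p = 0.0353). Irf1, which can act on ISREs by itself, was higher in every nivolumab library and did not pass (log2 fold change 0.60, SE 0.22, adjusted p = 0.0903).

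Of the 6 sensors and RNA-binding enzymes, 2 rose and 1 fell. Ddx58, which encodes the RNA sensor RIG-I, had 7.40, 6.82 and 8.53 CPM in sham, 7.47, 8.26 and 10.9 CPM in cancer and 19.4, 14 and 20.7 CPM in nivolumab. Nivolumab libraries stood apart from all others (log2 fold change 1.02, SE 0.19, adjusted p = 0.00763). Ifih1, encoding the sensor MDA5, had 4.11, 4.85 and 2.84 CPM in sham, 4.99, 3.65 and 4.81 CPM in cancer and 8.44, 7.40 and 8.37 CPM in nivolumab. Every nivolumab value was above every other value (log2 fold change 0.85, SE 0.21, adjusted p = 0.0254). Zbp1, a sensor of Z-form nucleic acid, had 0.329, 0.197 and 0.227 CPM in sham, 0.698, 0.571 and 1.46 CPM in cancer and 1.82, 0.926 and 1.41 CPM in nivolumab. Its cancer and nivolumab values overlapped and the difference did not pass (log2 fold change 0.61, SE 0.43, adjusted p = 0.345), while every cancer value was above every sham value. Dhx58, encoding LGP2, reached 0.63 (SE 0.22) and Eif2ak2, encoding the translation-blocking kinase PKR, 0.16 (SE 0.13), neither past the threshold.

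Adar is described because it was the sole member called lower, and was picked out after its values were seen. It had 187, 216 and 209 CPM in sham, 201, 207 and 199 CPM in cancer and 171, 178 and 163 CPM in nivolumab. All nivolumab libraries lay below all others, by a small amount (log2 fold change -0.25, SE 0.06, adjusted p = 0.0286). Its exons overlap those of Chrnb2 on the other strand over 16.8% of their length, and without a stated strand setting reads of the pair cannot be told apart. The call was lost in 7 of 19 alternatives other than the Schwann covariate.

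Both called members of the IFIT family, whose products bind viral RNA, are neighbours on chromosome 19. Ifit1 had 2.06, 2.52 and 2.99 CPM in sham, 3.88, 2.25 and 3.89 CPM in cancer and 25.5, 13.2 and 21.4 CPM in nivolumab. This was the largest rise of the set, 5.99-fold over cancer (log2 fold change 2.58, SE 0.29, adjusted p = 0.00171), and nivolumab 2 was the lowest of its group. Ifit3 had 9.45, 10.1 and 7.77 CPM in sham, 11.9, 8.75 and 7.29 CPM in cancer and 30.2, 16.3 and 20.9 CPM in nivolumab. Nivolumab stood above sham and cancer, which overlapped (log2 fold change 1.26, SE 0.25, adjusted p = 0.0110), but 51.2% of the 50-base stretches of Ifit3 transcripts also occur in Ifit3b, so its counts may include reads of that copy. Ifit2 lies next to them and was higher in every nivolumab library without passing (log2 fold change 0.38, SE 0.14, adjusted p = 0.0960).

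The OAS family makes the messenger that activates RNase L. Oasl2, an OAS-like protein, had 7.56, 6.94 and 7.85 CPM in sham, 5.62, 8.30 and 10.4 CPM in cancer and 42.1, 28.7 and 39.5 CPM in nivolumab. It was the second largest rise, 4.54-fold (log2 fold change 2.18, SE 0.22, adjusted p = 0.00149), and the lowest nivolumab library was well above the highest of the others. Oas1a had 1.23, 1.38 and 0.607 CPM in sham, 0.698, 1.56 and 1.10 CPM in cancer and 3.85, 1.92 and 3.00 CPM in nivolumab. Its levels were low and its call was at the threshold (log2 fold change 1.38, SE 0.42, adjusted p = 0.0479), lost in 13 of 19 alternatives other than the Schwann covariate, and 57.6% of its 50-base stretches occur in Oas1g too. Oas2 and Oas3 did not pass, at log2 fold changes of 0.26 (SE 0.44) and -1.31 (SE 0.83). The Oas3 value rested on cancer 3 with 0.210, 0.723 and 1.90 CPM in the cancer libraries in order and on values near the floor elsewhere.

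In the ISG15 system, 3 of 4 members rose. Trim25, a ubiquitin ligase that acts on RIG-I, had 9.33, 9.66 and 11.9 CPM in sham, 9.99, 12.1 and 12.6 CPM in cancer and 21.8, 20.3 and 21.9 CPM in nivolumab. The 3 nivolumab libraries were close together and well above the rest (log2 fold change 0.88, SE 0.13, adjusted p = 0.00350). Isg15, the ubiquitin-like modifier itself, had 2.51, 1.58 and 1.36 CPM in sham, 1.47, 0.913 and 1.06 CPM in cancer and 4.85, 2.95 and 3.11 CPM in nivolumab. Every nivolumab library was above every other library (log2 fold change 1.65, SE 0.33, adjusted p = 0.0112). Usp18, which removes ISG15 and dampens the interferon receptor, had 0.493, 1.3 and 1.02 CPM in sham, 1.75, 1.56 and 1.24 CPM in cancer and 6.40, 3.02 and 4.44 CPM in nivolumab. All nivolumab values were again above the rest (log2 fold change 1.60, SE 0.38, adjusted p = 0.0202). Herc6, a ligase for ISG15 in the mouse, stayed between 6.62 and 8.52 CPM in all 9 libraries and did not pass (log2 fold change 0.08, SE 0.13, adjusted p = 0.706).

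Restriction factors were mixed, with 3 of 7 called. Bst2, encoding tetherin, had 1.97, 3.27 and 1.63 CPM in sham, 2.23, 2.74 and 1.94 CPM in cancer and 7.75, 5.28 and 6.66 CPM in nivolumab. All nivolumab libraries were higher (log2 fold change 1.5, SE 0.28, adjusted p = 0.00858). Mx2, a gene of the dynamin-like GTPase type, is annotated in GENCODE as a polymorphic pseudogene. It had 5.59, 5.99 and 2.96 CPM in sham, 2.79, 2.66 and 2.83 CPM in cancer and 7.96, 6.0 and 6.48 CPM in nivolumab. The cancer libraries were the lowest group, and nivolumab 2 was only just above the highest sham library (log2 fold change 1.3, SE 0.26, adjusted p = 0.0105). Rsad2, encoding viperin, had 4.69, 2.41 and 3.37 CPM in sham, 1.22, 1.48 and 2.03 CPM in cancer and 4.67, 3.67 and 4.85 CPM in nivolumab. It showed the same order of groups, with sham and nivolumab overlapping and cancer below both (log2 fold change 1.48, SE 0.30, adjusted p = 0.0108). Cmpk2, a mitochondrial nucleotide kinase, starts 12.8 kb from Rsad2 on the opposite strand. Its level ran from 33.2 to 45.3 CPM over all 9 libraries and did not pass (log2 fold change 0.02, SE 0.10, adjusted p = 0.927). Ifitm3 (0.37, SE 0.14), Slfn2 (0.07, SE 0.37) and Mx1 (0.08, SE 0.61) did not pass either.

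**Figure D3:**
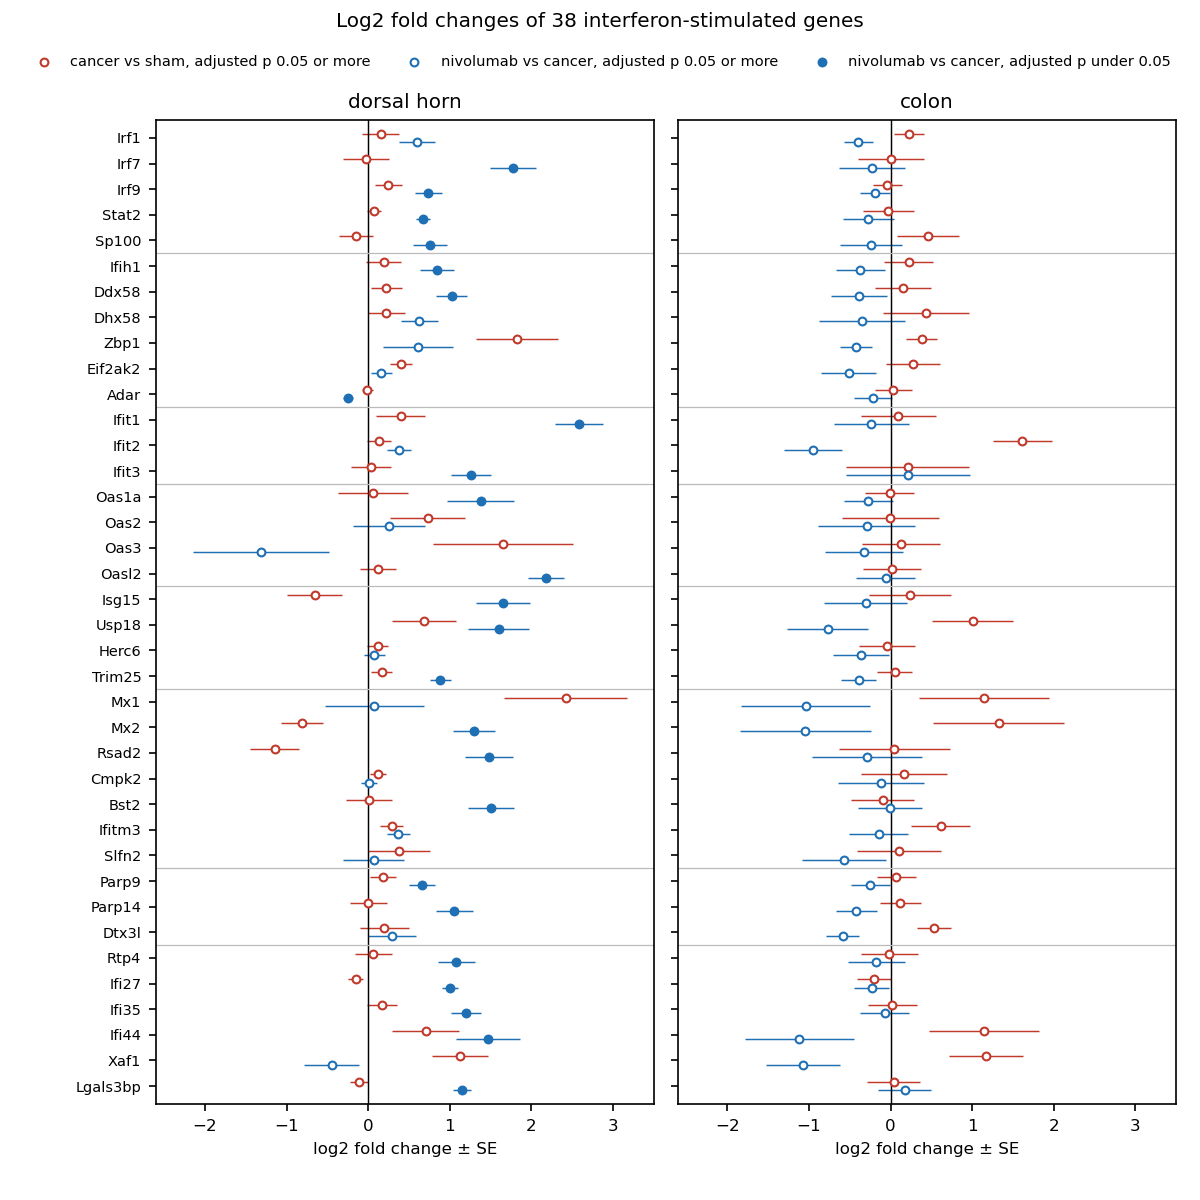
Log2 fold changes ± SE from edgeR for each of the 38 members, for cancer against sham (red) and nivolumab against cancer (blue), in the dorsal horn (left) and the colon (right), with filled points where the adjusted p was under 0.05. In the dorsal horn 24 blue points are filled, from -0.25 (Adar) to 2.58 (Ifit1). No colon point is filled.

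PARP9 and DTX3L form a complex that modifies histones and ubiquitin, and PARP14 is a related ADP-ribosyltransferase. Parp14 had 5.96, 5.56 and 5.53 CPM in sham, 6.32, 3.96 and 6.85 CPM in cancer and 14.4, 9.22 and 12.1 CPM in nivolumab. Its nivolumab libraries were above all others (log2 fold change 1.06, SE 0.22, adjusted p = 0.0132). Parp9 had 4.56, 4.65 and 4.02 CPM in sham, 5.48, 4.22 and 5.30 CPM in cancer and 8.0, 7.06 and 8.70 CPM in nivolumab. Nivolumab libraries were again the 3 highest (log2 fold change 0.66, SE 0.16, adjusted p = 0.0223). Dtx3l did not pass (log2 fold change 0.29, SE 0.30, adjusted p = 0.522), although its start lies 681 bases from that of Parp9 on the opposite strand. The exons of the pair overlap by 458 bases, in which reads cannot be assigned without strand.

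Of the 6 remaining members, 5 rose. Lgals3bp had 23.0, 19.9 and 27.3 CPM in sham, 20.8, 21.7 and 22.5 CPM in cancer and 47.8, 44.6 and 51.9 CPM in nivolumab. Sham and cancer overlapped, and nivolumab was 2.22-fold above cancer (log2 fold change 1.15, SE 0.11, adjusted p = 0.00128). Ifi27, a mitochondrial and nuclear membrane protein, had 35.7, 31.9 and 31.2 CPM in sham, 28.2, 33.2 and 27.6 CPM in cancer and 59.9, 55.1 and 63.5 CPM in nivolumab. Its spread within groups was small and its rise was 2.00-fold (log2 fold change 1.00, SE 0.09, adjusted p = 0.00128). Ifi35, which binds NMI, had 3.82, 3.98 and 4.51 CPM in sham, 3.70, 4.72 and 5.43 CPM in cancer and 10.8, 8.98 and 12.1 CPM in nivolumab. The lowest nivolumab value exceeded all others (log2 fold change 1.20, SE 0.18, adjusted p = 0.00391). Rtp4, a receptor transporter (log2 fold change 1.08, SE 0.22, adjusted p = 0.0120), and Ifi44, a cytoplasmic protein (log2 fold change 1.47, SE 0.39, adjusted p = 0.0308), rose as well. Xaf1, which binds the apoptosis inhibitor XIAP, did not pass (log2 fold change -0.44, SE 0.34, adjusted p = 0.384), with cancer libraries at 10.4, 29.7 and 25.5 CPM and nivolumab libraries at 18.2, 13.5 and 16.5 CPM.

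**Figure D4:**
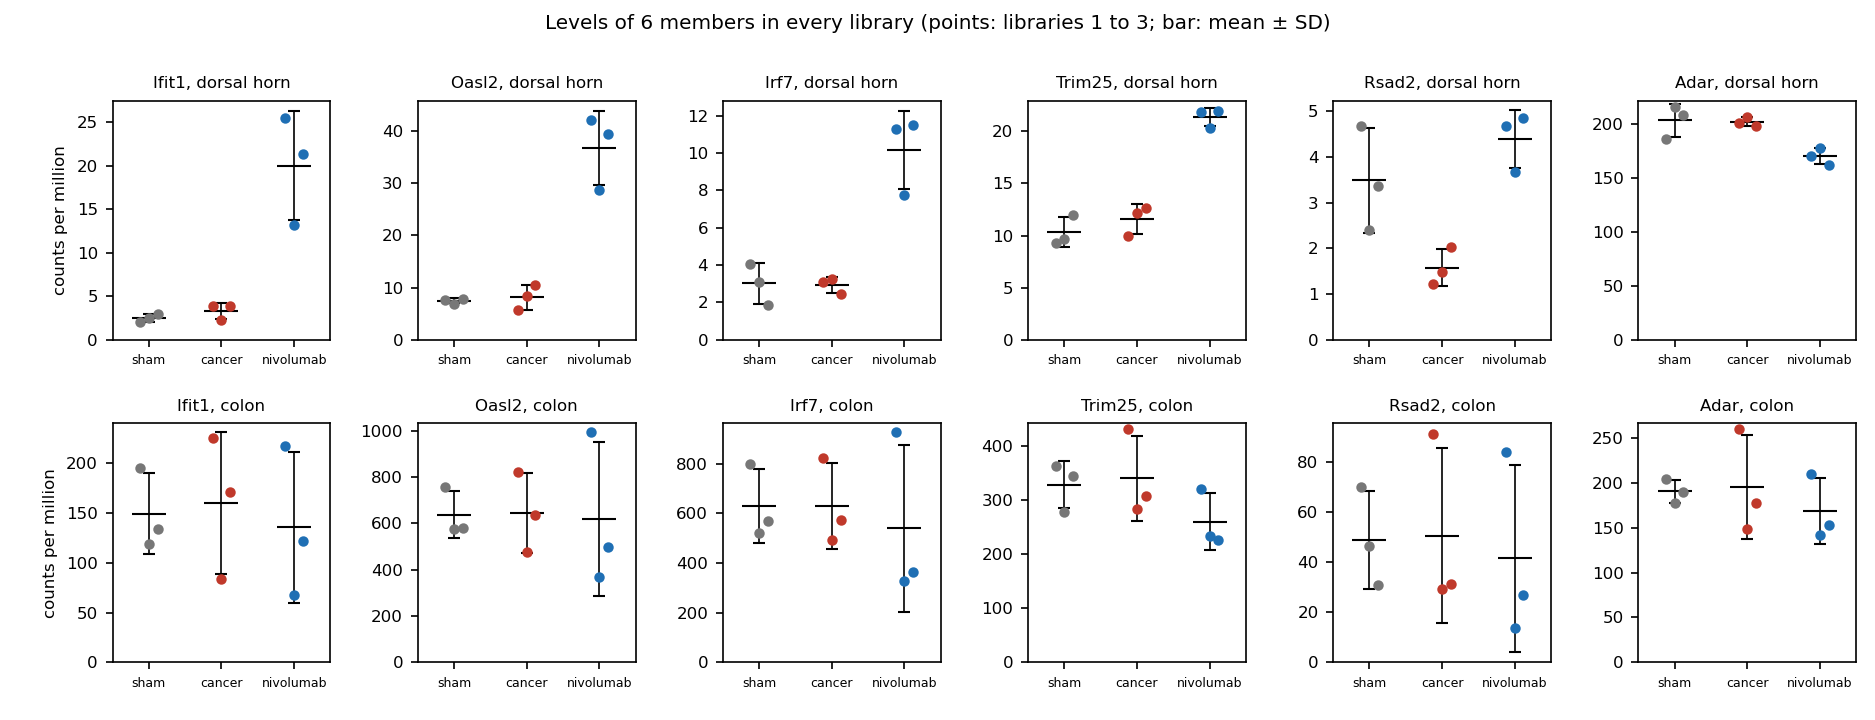
CPM of 6 members in every dorsal horn library (top row) and colon library (bottom row), as points, with the group mean ± SD (n = 3) as a bar and a linear axis from 0. In the dorsal horn Ifit1, Oasl2, Irf7 and Trim25 have all nivolumab points above all others, Rsad2 has its cancer points lowest and Adar its nivolumab points lowest. In the colon the groups of all 6 overlap.

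Single libraries set part of the size. In 35 of 38 members nivolumab 2 was the lowest of the nivolumab libraries, an order not computed over all genes. Nivolumab 1 was the highest of all 9 libraries in 18 members and nivolumab 3 in 16, where 11.8% and 14.5% of all genes were. Without nivolumab 1, 13 members were called, and without cancer 2 or without nivolumab 3, 16 each. The calls over all genes also varied, from 771 to 2717 with each library left out in turn. Outside the Schwann covariate, 12 members were called in each of 19 alternatives: Bst2, Ddx58, Ifi27, Ifi35, Ifit1, Ifit3, Irf7, Lgals3bp, Mx2, Oasl2, Stat2 and Trim25. After nivolumab the order of levels per kilobase also differed from sham, with Ifit1 moving from rank 23 to 8 of 38 and Oasl2 from 20 to 11.

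Nivolumab against sham shares the nivolumab libraries with the comparison above. Here 22 of 38 members were called higher and 1 lower, where 4.67% of all genes were called higher and 3.84% lower (8.51% either way). DESeq2 called 29. At an unadjusted p under 0.05, 28 were higher and 1 lower (12.8% and 13.4% of all genes). In 31 members every nivolumab library was above every sham library, against 17.1% of all genes, in 1 every one was below (18.1%), 37 had a fold change above 0 (49.5%), and the median was 0.99, with that of all genes near 0. Ifit1 rose 7.89-fold (log2 fold change 2.98, SE 0.30, adjusted p = 0.00380), Oasl2 4.93-fold (log2 fold change 2.30, SE 0.22, adjusted p = 0.00365) and Usp18 4.88-fold (log2 fold change 2.29, SE 0.39, adjusted p = 0.0120). Dhx58, Eif2ak2, Ifitm3 and Zbp1 were called against sham and not against cancer, whereas Isg15, Mx2, Oas1a, Rsad2 and Sp100 were called against cancer and not against sham. Among the former, Zbp1 rose 5.41-fold (log2 fold change 2.44, SE 0.49, adjusted p = 0.0187), while Dhx58 (0.85), Ifitm3 (0.66) and Eif2ak2 (0.56) had smaller log2 fold changes. Among the latter, Rsad2 (log2 fold change 0.33, SE 0.28, adjusted p = 0.497) and Mx2 (log2 fold change 0.49, SE 0.25, adjusted p = 0.251) differed less from sham than from cancer, and the Rsad2 values of nivolumab and sham overlapped. Cmpk2, Dtx3l, Herc6, Ifit2, Irf1, Mx1, Oas2, Oas3, Slfn2 and Xaf1 were called in neither. With the Schwann score as covariate 0 members and 0 genes were called, with 21 members at an unadjusted p under 0.05 (8.85% of all genes) and a median of 0.90. With the ganglion score 18 were called, with 26 members and 4272 of all genes at an unadjusted p under 0.05. Leaving out nivolumab 1 left 7 calls, and leaving out sham 1 or nivolumab 3 left 11 each. The calls over all genes ran from 95 to 1237 with each library left out in turn. Outside the Schwann covariate, 7 of the 23 members were called in each of 19 alternatives, namely Ifi27, Ifi35, Ifit1, Lgals3bp, Oasl2, Stat2 and Trim25. The call was lost in 12 of the 19 for Adar, 11 for Dhx58, 7 for Eif2ak2, 6 for Zbp1 and 3 for Ifitm3.

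Cancer against sham gave no call among the 38 members with edgeR, where 0.323% of all genes were called (0.0955% higher and 0.228% lower). At an unadjusted p under 0.05 there were 4 members higher and 2 lower, where 6.06% and 7.04% of all genes were so. The groups did not overlap in 4 members that were higher and 2 that were lower in cancer (8.46% and 8.34% of all genes), and the median log2 fold change was 0.16 against 0.01. It was above 0 in 30 members, as in 51.4% of all genes. The 2 that were lower were Rsad2 (log2 fold change -1.15, SE 0.30, adjusted p = 0.153) and Mx2 (log2 fold change -0.81, SE 0.26, adjusted p = 0.229), both picked out here for this order. DESeq2 called Rsad2 lower and Xaf1 higher. Xaf1 (log2 fold change 1.12, SE 0.34, adjusted p = 0.229) was high in cancer 2 and cancer 3 only, and was called by edgeR when cancer 1 was left out. Mx2 was called lower when sham 3, its lowest sham library, was left out. Mx1 had 0.0822, 0.197 and 0 CPM in sham, 0.489, 0.571 and 0.486 CPM in cancer and 0.865, 0.343 and 0.444 CPM in nivolumab, with sham 2 the only sham library above its floor, so its sham level was scarcely measurable. Eif2ak2 (log2 fold change 0.40, SE 0.13, adjusted p = 0.244) and Zbp1 (log2 fold change 1.83, SE 0.50, adjusted p = 0.174) had every cancer library above every sham library without passing.

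The rest of the pathway was read from lists of genes other than the members. Of 21 interferon ligands only Ifna1, Ifnk and Ifng had a row for the dorsal horn and none was tested, since their level was 0 in most libraries and at most 0.0865 CPM. The shares of all genes to read these counts against are 8.63% higher and 8.6% lower. Of 13 tested genes that induce interferon, 1 was higher with nivolumab than with cancer, Irf5 (log2 fold change 0.57, SE 0.17, adjusted p = 0.0461). Among receptors, kinases and STATs, for which no count is given, Il10rb (log2 fold change 1.25, SE 0.21, adjusted p = 0.00596) and Stat3 (log2 fold change 0.55, SE 0.13, adjusted p = 0.0208) rose, and Ifnlr1, the type III receptor chain, fell (log2 fold change -0.90, SE 0.26, adjusted p = 0.0401). Of 15 inhibitors none rose and Pias1 fell (log2 fold change -0.44, SE 0.11, adjusted p = 0.0276). Of 32 further interferon-stimulated genes 5 rose, among them Lgals9 (log2 fold change 1.20, SE 0.24, adjusted p = 0.0115) and Ube2l6, the ISG15-conjugating enzyme (log2 fold change 1.21, SE 0.27, adjusted p = 0.0165), and Sp140 fell (log2 fold change -1.25, SE 0.20, adjusted p = 0.00507). Of 8 interferon-inducible GTPases 3 rose, namely Igtp (log2 fold change 1.67, SE 0.22, adjusted p = 0.00274), Gbp6 (log2 fold change 1.47, SE 0.28, adjusted p = 0.00911) and Gbp2 (log2 fold change 1.04, SE 0.29, adjusted p = 0.0362). Against sham, where 4.67% of all genes were higher and 3.84% lower, 0 of the 13 inducing genes, 1 inhibitor higher and 1 lower of 15, 6 further genes higher of 32 and 3 GTPases higher of 8 were called, and cancer against sham gave 0 in each of these lists.

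Immune cell markers in the dorsal horn differed in level by type. The 12 T and NK cell markers summed to 1.63 to 2.38 CPM in sham, 2.72 to 6.70 in cancer and 2.77 to 3.70 in nivolumab, with 2 to 7 of them at 0 in each library. By this sum every cancer and nivolumab library was above every sham library, whereas by mean log2 CPM the groups overlapped. Cd3d and Cd3g, picked from the list, were at 0 in all sham and nivolumab libraries. Plasmacytoid dendritic cell markers (7 genes) summed to 4.18 to 7.39, 5.24 to 8.64 and 4.89 to 14.4 CPM. Microglial markers (11 genes) had mean log2 CPM of 4.10 to 4.88 in sham, 3.92 to 4.52 in cancer and 4.49 to 4.81 in nivolumab, so nivolumab overlapped sham. Neutrophil markers (9 genes) summed to 38 to 144 CPM in sham, 45.6 to 259 in cancer and 28.8 to 64.2 in nivolumab, and B and plasma cell markers (10 genes) to 135 to 169, 71.7 to 140.0 and 151 to 164. The part of any of these cells in the rise of the members was not tested.

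In the colon no member passed in any comparison, and neither did any of the 13445 genes tested (0% in each). For cancer against sham, 3 members were higher at an unadjusted p under 0.05, where 5.38% of all genes were higher and 5.53% lower, and DESeq2 called 1. All cancer libraries were above all sham libraries in 3 members (6.96% of all genes) and below in 0 (12.3%). The median over the members was 0.12 against 0.00 over all genes, with 30 members above 0 (50.3%). For nivolumab against cancer 3 were lower and 0 higher (4.29% and 5.55% of all genes), and DESeq2 called 0. Libraries were all lower in 1 member and all higher in 0 (7.16% and 7.99%), and the median was -0.30 against 0.03, with 2 members above 0 (53.1%). For nivolumab against sham none reached that level with edgeR and DESeq2 called 0, against 3.6% of all genes higher and 2.85% lower, with a median of -0.14 and 12 members above 0 (54.1%). All nivolumab libraries were above all sham libraries in 1 member, Ifitm3, and below in 0 (8.81% and 6.11%).

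Ifit2 was the member with the smallest p in the colon. It had 157, 124 and 112 CPM in sham, 557, 349 and 300 CPM in cancer and 303, 118 and 204 CPM in nivolumab. Every cancer library was above every sham library, 3.07-fold by the fit (log2 fold change 1.62, SE 0.36, adjusted p = 0.212), and DESeq2 called this difference. Xaf1 had 78.3, 65.3 and 55.3 CPM in sham, 232, 105 and 112 CPM in cancer and 122, 38.9 and 52.2 CPM in nivolumab. Cancer and sham did not overlap, but cancer 1 carried much of the difference (log2 fold change 1.18, SE 0.45, adjusted p = 0.403). Dtx3l had 146, 122 and 195 CPM in sham, 260, 192 and 218 CPM in cancer and 131, 144 and 171 CPM in nivolumab. Its nivolumab libraries lay below its cancer libraries (log2 fold change -0.59, SE 0.20, adjusted p = 0.480).

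The member with the smallest p in each other role group is given next. Usp18 had 56.9, 57.2 and 55.2 CPM in sham, 193, 77.0 and 70.4 CPM in cancer and 117, 34.6 and 48.3 CPM in nivolumab. Cancer was above sham in each library without passing (log2 fold change 1.01, SE 0.50, adjusted p = 0.506). Irf1 had 377, 304 and 396 CPM in sham, 334, 500 and 427 CPM in cancer and 347, 315 and 298 CPM in nivolumab. Its groups overlapped (log2 fold change of nivolumab against cancer -0.39, SE 0.18, adjusted p = 0.518). Zbp1 had 308, 236 and 258 CPM in sham, 372, 378 and 295 CPM in cancer and 319, 211 and 249 CPM in nivolumab. Nivolumab 1 lay above cancer 3, so the groups overlapped (log2 fold change of nivolumab against cancer -0.42, SE 0.19, adjusted p = 0.517). Ifitm3 had 134, 186 and 163 CPM in sham, 293, 340 and 106 CPM in cancer and 197, 226 and 246 CPM in nivolumab. The cancer libraries spread from lowest to highest of all 9 (log2 fold change of cancer against sham 0.61, SE 0.36, adjusted p = 0.558). Oas1a had 298, 292 and 300 CPM in sham, 415, 182 and 288 CPM in cancer and 328, 212 and 192 CPM in nivolumab. Sham libraries were nearly equal, while those of cancer and nivolumab spread widely (log2 fold change of nivolumab against sham -0.28, SE 0.30, adjusted p = 0.963).

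Single libraries stood out in the colon. Cancer 1 was the highest of 9 libraries in 28 of 38 members, against 8.35% of all genes, and nivolumab 2 was the lowest in 23, against 7.75%. Mean log2 CPM of the members was 7.19, 6.95 and 6.88 in sham, 7.86, 6.75 and 6.97 in cancer, and 7.51, 6.37 and 6.62 in nivolumab. Within the groups, cancer 1 was highest in 34 members and nivolumab 1 in 35, an order not computed over all genes. The median coefficient of variation of the members was 15.8% in sham, 43.0% in cancer and 44.0% in nivolumab, where that of all genes was 16.3%, 24.6% and 20.5%. In the dorsal horn it was 17.7%, 16.6% and 15.0% for the members and 8.97%, 9.87% and 7.16% for all genes. Ifi44 was picked to show cancer 1 standing out, with 76.8, 65.1 and 65.5 CPM in sham, 312, 34.4 and 112 CPM in cancer and 115, 46.5 and 50.4 CPM in nivolumab. Its lowest library was cancer 2.

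Leaving out these libraries moved the colon medians. Without cancer 1 the median for cancer against sham was -0.21, and for nivolumab against cancer it was 0.00. Without nivolumab 1 the median for nivolumab against cancer was -0.79, with 18 members lower at an unadjusted p under 0.05 and none past the adjusted threshold. Without nivolumab 1 the median for nivolumab against sham was -0.61, and without nivolumab 2 it was 0.05. Markers of T and NK cells (12 genes) had a mean log2 CPM of 2.74 in cancer 1, 2.83 in cancer 2 and 1.94 in cancer 3, and of 3.01, 1.08 and 2.61 in nivolumab. Nivolumab 2 was thus the lowest library for these markers as for the members, and cancer 1 was not the highest. Other colon lists also differed, and those given here were picked after their values were seen. Neutrophil markers (9 genes) summed to 4.71 to 7.31 CPM in sham, 4.27 to 93.2 in cancer and 30.4 to 193 in nivolumab. B and plasma cell markers summed to 1347 to 1680 CPM in sham, 409 to 808 in cancer and 602 to 786 in nivolumab. By mean log2 CPM the groups overlapped in the B and plasma cell list. Smooth muscle markers (8 genes) summed to 1341 to 20306 CPM within sham. The part of any of these cells in the members' levels was not tested.

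The responses of the tissues were compared by the interaction term of 1 fit of all 18 libraries, which asks whether the dorsal horn change differs from that of the colon. For nivolumab against cancer no member passed, where 0.127% of 14164 genes did. In 0.0988% the dorsal horn change was above that of the colon and in 0.0282% below. At an unadjusted p under 0.05 there were 25 of 38 members (16.4% of all genes). DESeq2 called 14 members, and its share over all genes is not given here. The term was above 0 in 37 of 38 members, with a median of 1.11 against 0.07 over all genes. The smallest adjusted p was 0.0551, shared by Ifi27 and Trim25. For nivolumab against sham 1 member passed, where 0.184% of all genes did (0.134% above and 0.0494% below), with 21 at an unadjusted p under 0.05 (12.7% of all genes). This was Trim25, with a difference of 1.41 (SE 0.26, adjusted p = 0.0471), a call that was lost in 15 of 23 alternatives. In the colon Trim25 had 363, 279 and 345 CPM in sham, 431, 285 and 308 CPM in cancer and 322, 235 and 226 CPM in nivolumab, with the groups overlapping. For cancer against sham none passed (0.155% of all genes, 0.0706% above and 0.0847% below), 3 had an unadjusted p under 0.05 (10.9% of all genes), and DESeq2 called 1.

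**Figure D5:**
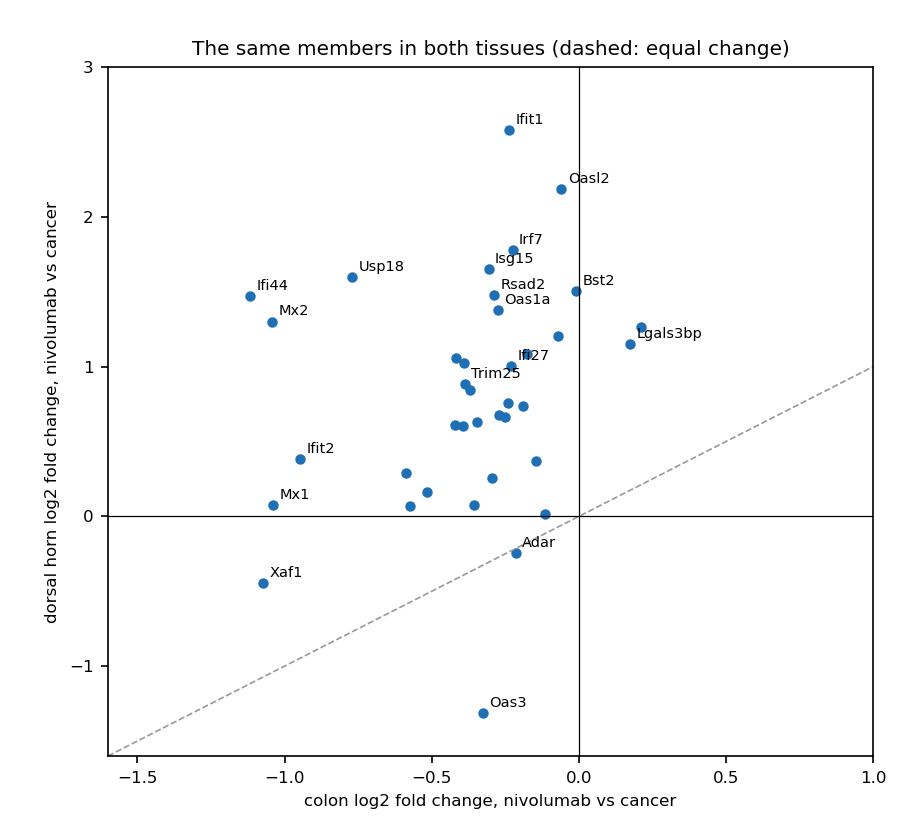
Log2 fold change of nivolumab against cancer for each of the 38 members in the colon (horizontal) and in the dorsal horn (vertical), each from its own fit, with a dashed line where both are equal. For 36 of 38 members the point lies above the line. Adar and Oas3 lie below it, and most members are left of 0 in the colon and above 0 in the dorsal horn.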

How the data were processed

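Per the labels' protocols, TRIzol was used to extract RNA of both tissues, and libraries were made with the SmartScribe reverse transcriptase. FastQC 0.11.5, Trimmomatic, HISAT2, StringTie and GRCm38 are named in the submitters' processing notes. For the counting tool, strand setting, annotation and any filter, nothing is given in the sources used here. The authors deposited raw counts per gene, one table per tissue.

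Counts were tested per tissue with edgeR 4.0.16 in R 4.3.3 (TMM scaling, filterByExpr, robust quasi-likelihood test, Benjamini-Hochberg adjustment over all genes, threshold 0.05), with the 9 libraries in 1 fit, and the difference between tissues as an interaction over 18 libraries. CPM values use TMM-scaled library sizes, and log2 CPM took 2 as its prior count. Genes per tissue that passed the filter were 13445 and 13609. Alternatives included DESeq2 1.42.0, RLE factors, no filter, leaving out libraries, a replicate block and marker scores as covariates, of which the Schwann cell and muscle scores were chosen after seeing the data. The pipeline was tested on simulated data.

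The members and lists were chosen with earlier results of these data known. Values in every library are given for up to 3 members per role and tissue with the smallest adjusted p past 0.05 in any contrast, otherwise for the member with the smallest p, and for other lists, up to 4 called genes. One pathway gene is not reported here. Genes described beyond this rule were picked after their values were seen. Totals per library were 20896854 to 30803957 (colon) and 21855085 to 29071908 (dorsal horn), and the Wilson intervals and the floor of 3 counts cover counting error only. Promoters are RefSeq windows of GRCm38.p6, and exon lengths and overlaps come from GENCODE.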

Additional observations from a re-analysis of the deposited data

Results flagged for a closer look

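Trim25, the ubiquitin ligase that acts on RIG-I, is listed because its change with nivolumab against sham differed between the tissues by a test of the difference itself. The dorsal horn change exceeded the colon change by 1.41 on the log2 scale (SE 0.26, edgeR adjusted p = 0.0471). The call was lost in 15 of 23 alternatives.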

How the results depend on the processing

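In the colon no comparison gained a member under any alternative except DESeq2, which called 1 for cancer against sham. In the dorsal horn, cancer against sham had 2 calls with DESeq2 and 0 to 1 when each library was left out in turn. For nivolumab against cancer the count was 0 with the Schwann cell score as covariate and 13 to 25 with each library left out, and for nivolumab against sham 0 and 7 to 24. For the difference between tissues, cancer against sham had 1 call with DESeq2. Nivolumab against cancer had 14 with DESeq2 and 0 to 13 with each library left out. Nivolumab against sham had 0 with RLE factors, 10 with DESeq2, 2 without sham 3 and cancer 3 together and 0 to 8 with each library left out. Over all genes, leaving out each library gave 1 to 138 such differences for nivolumab against cancer and 3 to 64 for nivolumab against sham. The shares of all genes called by DESeq2, with the replicate block or with the ganglion and muscle scores are not given here. The member counts of those fits therefore lack a baseline at the adjusted threshold. Where a cause is not clear from the setting itself, the cause was not tested. Of the values for the 48 called gene results, 780 kept their side of the threshold, 183 lost it and none changed sign. The member medians in the colon did change sign, for cancer against sham from 0.12 to -0.21 without cancer 1, for nivolumab against cancer from -0.30 to 0.00 (just above 0) without cancer 1, and for nivolumab against sham from -0.14 to 0.05 without nivolumab 2. The promoter share was 65.6% with the wider core (14.2% of all genes). It was 37.5% in the 150 bases before and 50 after the start (2.39% of all genes). The GAS core, a different element, was in 25% (9.55% of all genes).

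The labels do not show whether libraries with the same number are paired. In the colon, their deviations from the group means correlated above 0.1 in 3 of 9 pairs, against 7 of 18 pairs with different numbers. In the dorsal horn this held for 6 of 9 pairs, against 5 of 18 with different numbers. The median correlations there were 0.19 and -0.09. With the replicate number as a block, the dorsal horn counts were 0 for cancer against sham, 23 for nivolumab against cancer and 24 against sham, all colon counts were 0, and the differences between tissues had, in that order, 0, 8 and 9 calls.

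With 3 libraries a group and a common biological coefficient of variation of 0.376 (colon) and 0.17 (dorsal horn), the colon tests had the larger spread to overcome. Members near the floor of 3 counts in the dorsal horn (Mx1, Zbp1 and Oas3 in sham) have imprecise fold changes.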
